A study of Mus musculus with 6 samples.

Results

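The whole thymus of the wild type C57BL/6 mouse was described from 3 expression arrays, 1 for each of 3 mice. Probes were kept where the scanner called them present, at a detection p below 0.05, on all 3 arrays. This left 16494 of the 45281 probes, which named 8957 of the 19057 genes with a probe. The other 3 arrays of the 6 in the series came from thymuses of the miR-181d transgenic line Tg-38 and were not compared here. Total RNA of the whole organ was biotin-labelled and hybridized to Illumina mouse beadchips. The labels give the tissue as whole thymus and the cell type as thymocyte, and no cells were sorted, so that epithelium, stroma, blood and other leukocytes of the organ can contribute RNA.

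The thymus is where blood-borne precursors become T cells. In the cortex, early thymocytes that lack CD4 and CD8 rearrange their T cell receptor genes, divide rapidly and become double-positive (DP) cells, which carry both coreceptors and make up most of the organ. Cortical and medullary epithelial cells, fibroblasts, macrophages and dendritic cells form the framework that attracts, selects and clears them, and the few cells that pass selection leave as single-positive (SP) T cells.

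Red cell genes gave the widest differences between mice among the brightest signals, and the stretches of DNA in front of their start sites are therefore shown. The sequences run 5′ to 3′, hold the 120 bases before the RefSeq start of each gene and are taken from the RefSeq table of build GRCm38.p6. On either strand, capitals mark CACCC, the box that Klf-type factors bind, then CCAAT, the box of that name, then ATATAA as a form of the TATA box, and lastly AGATAA as a form of the element that GATA factors bind. The CCAAT letters read ATTGG on the opposite strand, and in Hbb-bt an inverted and a direct copy adjoin without overlap. Hbb-bs and Hbb-bt encode adult beta-globin chains, Hba-a1 encodes an alpha-globin chain, and Alas2 encodes the red cell enzyme that starts heme synthesis.
Hbb-bs, chr7:103827929-103828048, minus strand: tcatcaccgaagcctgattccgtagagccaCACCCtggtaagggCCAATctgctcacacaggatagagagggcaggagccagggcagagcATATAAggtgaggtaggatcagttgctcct
Hbb-bt, chr7:103813924-103814043, minus strand: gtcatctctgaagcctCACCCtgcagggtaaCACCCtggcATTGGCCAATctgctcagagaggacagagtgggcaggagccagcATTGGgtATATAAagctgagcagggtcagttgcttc
Hba-a1, chr11:32283552-32283671, plus strand: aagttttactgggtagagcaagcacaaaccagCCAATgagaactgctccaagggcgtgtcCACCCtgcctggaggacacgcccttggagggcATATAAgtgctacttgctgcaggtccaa
Alas2, chrX:150547297-150547416, plus strand: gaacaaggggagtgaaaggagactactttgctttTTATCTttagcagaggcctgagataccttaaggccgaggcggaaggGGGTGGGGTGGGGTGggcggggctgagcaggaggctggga
All 3 globin stretches held the first 3 of these motifs, a combination found in 94 of 32851 RefSeq stretches of the same length and place (0.286%). Singly, CACCC was present in 31.7% of them, while CCAAT was present in 21.3% and ATATAA in 4.47%. Alas2 held CACCC on the opposite strand and AGATAA on the opposite strand, the second of which was present in 4.36% of the stretches. A match to these letters is a description of the sequence and not a binding site. The motifs were set by hand as known promoter elements, and the beta-globin genes are near-identical copies. The share of stretches with the combination is therefore no test.

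Signal was spread very unevenly over the detected probes. The signals below are background-corrected, quantile-normalized values on the log2 scale, on which 1 unit is a doubling. Mean signals over the mice ran between 5.23 and 15.37, or 37.7 and 42314 on the linear scale, with a median of 7.92. The brightest 1% of probes, 165 in number, held 23.2% of the summed linear signal in each mouse, the brightest 5% held 49.4% and the brightest 10% held 63.6%. Quantile normalization gives every array the same set of values, so these shares could not differ much between mice. Mouse 1 had 18316 detected probes, mouse 2 had 18526 and mouse 3 had 17674. Only 1 mouse detected 731 probes in the case of mouse 1, 954 in the case of mouse 2 and 439 in the case of mouse 3.

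The order of the genes is an order of probe signals. A gene was given the signal of its brightest detected probe, and a bright probe can reflect the probe as well as the transcript. Of 3431 genes with at least 2 detected probes, the brightest and the dimmest probe of a gene differed by a median of 3.35-fold, and by more than 4-fold in 45.0% of them. Of the 100 brightest probes, 43 are listed under no single gene and are therefore without a name here. Positions given below are percentiles of mean signal among the 8957 detected genes, and 448 genes (5.00%) make up the top 5% by this definition, which start at a log2 signal of 12.07.

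Genes of the ribosome and core histones dominated the top of the order. The brightest gene was H2ac13, a replication-dependent histone H2A gene, at 15.33 ± 0.03 (SD, n = 3 mice, as throughout). H2ac24, H2ac10, H2ac20 and H2ac7 were also among the first 6 genes. The coding sequences of these H2A genes are nearly identical, so the probes may read several of them at once and the values of single H2A genes are uncertain. Of 61 histone genes on the array, 52 were detected and 12 were in the top 5%. Histone H2A.Z, the variant encoded by H2az1, stood at rank 96, with 13.37, 13.47 and 13.59 in mice 1, 2 and 3.

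Rplp1, an acidic stalk protein of the large ribosomal subunit, was second at 15.30 ± 0.05. The first 25 also held Rps29, Rpl41, Rpl23, Rps2, Rps12, Rpl38, Rps9, Rpl9 and Rps14, which are all structural proteins of the ribosome. Of 33 large-subunit genes on the array, 30 were detected, at a median percentile of 99.4, and 23 were in the top 5%. The small subunit gave 21 of 23 detected, a median percentile of 99.4 and 18 in the top 5%. Eef1a1, the elongation factor that brings aminoacyl-tRNA to the ribosome, was ninth with 15.18, 14.95 and 15.07 in mice 1, 2 and 3. Translation factors as a group stood at the 92.4 percentile with 13 of 27 detected genes in the top 5%.

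**Figure D1:**
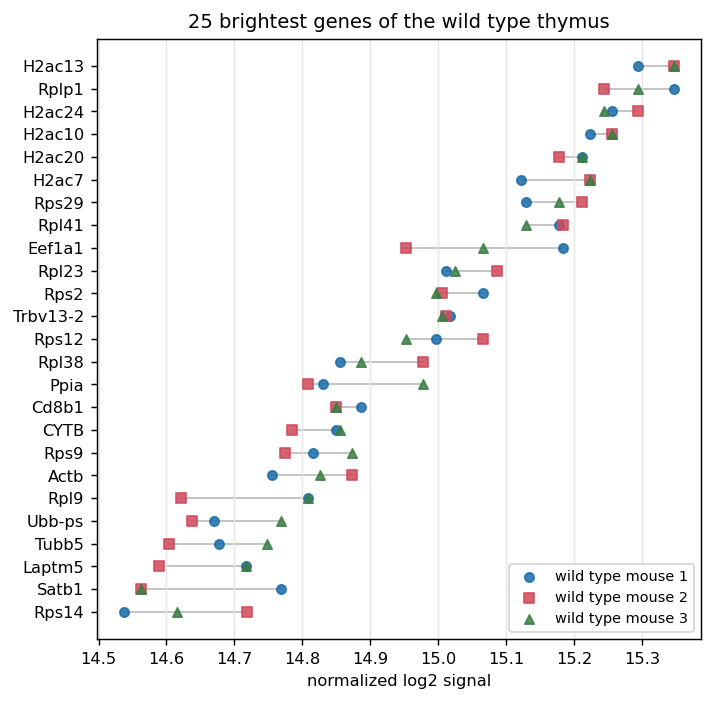
Normalized log2 signal of the 25 brightest genes, from the brightest at the top, with 1 point for each wild type mouse and a line from the lowest to the highest mouse. Signals run from 15.33 for H2ac13 to 14.62 for Rps14 as means, and Eef1a1 has the widest range of the first 10 genes at 1.17-fold.

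Genes of the thymocyte itself reached the same range as the housekeeping genes. Cd8b1, the beta chain of the CD8 coreceptor, was at rank 16 with 14.89 in mouse 1 and 14.85 in both other mice. The probe listed under Trbv13-2, a variable segment of the T cell receptor beta locus, was at rank 12 with 15.01 ± 0.01. Satb1, a chromatin organizer of thymocytes, was at rank 24 with 14.77, 14.56 and 14.56 in mice 1, 2 and 3. Laptm5, a lysosomal membrane protein of blood cells, was at rank 23 with 14.67 ± 0.07. Also among the first 25 were Actb and Tubb5 of the cytoskeleton, the prolyl isomerase Ppia, mitochondrial cytochrome b (CYTB) and Ubb-ps, a ubiquitin B pseudogene whose sequence is close to that of Ubb.

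Of 17 antigen receptor and coreceptor genes on the array, 15 were detected and 7 were in the top 5%, against 5.00% of all genes, at a median percentile of 92.3. Thy1, a surface glycoprotein of all thymocytes, was at rank 28 with 14.55, 14.57 and 14.64 in mice 1, 2 and 3. The CD3 chains, which carry the signal of the T cell receptor, followed with Cd3d at rank 68, Cd3g at rank 91 and Cd3e at rank 101. Cd4 itself was at rank 3563 with 9.13 ± 0.16, and neither of the 2 probes for Cd8a was detected on any array although Cd8b1 was among the brightest genes. Both values belong to the probes and give no ratio of CD4 to CD8 transcripts.

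The DP markers stood high as a group, with 12 of 15 genes detected at a median percentile of 89.8 and 4 in the top 5%. Rag1, which cuts receptor genes for recombination, had 12.18, 12.07 and 12.24 in mice 1, 2 and 3. Arpp21, an RNA-binding protein that marks DP cells, was at rank 124 with 13.27, 13.25 and 13.29. Dntt, the polymerase that adds untemplated bases at receptor joints, had 11.32 ± 0.10, and Rag2, the partner of Rag1, had 8.09 ± 0.27. For Rag1, Arpp21, Dntt and Rag2 the mice differed by less than 1.5-fold.

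T lineage transcription factors were detected for 20 of 22 genes, and 6 were in the top 5%. Ets1 had 13.86, 13.66 and 13.79 in mice 1, 2 and 3, and Bcl11b, which holds cells in the T lineage, had 13.82, 13.51 and 13.48. Ikzf1, the factor Ikaros, was at rank 184. Of the kinases, adaptors and phosphatases just below the T cell receptor, 23 of 26 were detected at a median percentile of 84.8. The brightest was Rasgrp1, an exchange factor for Ras, at 13.49, 13.43 and 13.38. Zap70, the kinase that docks on the phosphorylated CD3 chains, had 11.87, 11.85 and 11.99.

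Genes of dividing cells, protein turnover and energy supply were also bright. The proteasome had 31 of 37 genes detected at a median percentile of 94.0, led by Psma2 with 13.43, 13.58 and 13.55 in mice 1, 2 and 3. Oxidative phosphorylation had 64 of 67 detected at 93.1, led by Atp5b, a subunit of the ATP synthase, with 14.60, 14.54 and 14.61. Splicing factors and hnRNP proteins stood at 91.6, and actin and its regulators at 90.4. The mitosis list had 29 of 39 members detected at a median percentile of 78.8. It counts Ccnd3, the D-type cyclin of thymocytes, at rank 84, although a D-type cyclin is not itself a gene of mitosis. Cenpa, the histone of centromeres, was at rank 119. DNA replication genes were detected for 34 of 38 members at 76.0, led by Mcm4 of the replicative helicase with 12.81, 12.63 and 12.77.

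Lists for the rarer cells of the organ stood below the middle of the order. Macrophage markers had 21 of 27 genes detected at a median percentile of 31.5. The receptor Csf1r had 6.24, 5.81 and 5.94 in mice 1, 2 and 3, and Adgre1, the antigen F4/80, had 6.67, 6.57 and 5.94. Lyz2, the lysozyme of myeloid cells, was brighter with 10.22, 9.90 and 9.80. Medullary epithelium markers stood at 32.2 with 11 of 26 detected, fibroblast and matrix genes at 30.0 with 15 of 38 detected, and endothelium markers at 26.9 with 10 of 26 detected. B cell and plasma cell markers were detected for 5 of 18 genes. Cortical epithelium markers stood at 48.2 with 10 of 20 detected, and the brightest was Ccl25, the chemokine that draws precursors into the thymus, at rank 780.

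Defining markers gave the makeup of the samples with some gaps. On no array was a listed probe detected for Foxn1, the master factor of thymic epithelium, for the epithelial markers Epcam and Krt5, for the collagens Col1a1 and Col3a1, or for Itgax, Flt3 and Xcr1 of dendritic cells. The remaining dendritic cell marker, Cst3, was bright, with 11.62, 11.77 and 11.72 in mice 1, 2 and 3. The longer list of dendritic cell markers had 11 of 23 genes detected. The SP marker S1pr1, the receptor used to leave the thymus, was also undetected, while Klf2, which drives S1pr1, had 10.28, 9.86 and 9.91 in mice 1, 2 and 3. The muscle genes Acta1, Ckm and Myh4 and the parathyroid hormone gene Pth were below detection on all 3 arrays, and 0 of 11 parathyroid and thyroid genes on the array were detected. The lists for skeletal and heart muscle and for adipose tissue did have detected genes, 13 of 42 and 8 of 30. Adipoq of adipose tissue was detected on 2 of 3 arrays, with 4.61, 5.44 and 5.35 in mice 1, 2 and 3. Neutrophil markers were detected for 13 of 22 genes, and the alarmin S100a8 was among the bright ones with 11.85, 12.05 and 11.56. Xist, the RNA that silences an X chromosome, had 11.87, 12.43 and 11.74, and Uty of the Y chromosome was near the limit of detection with 5.22, 5.73 and 5.33.

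**Figure D2:**
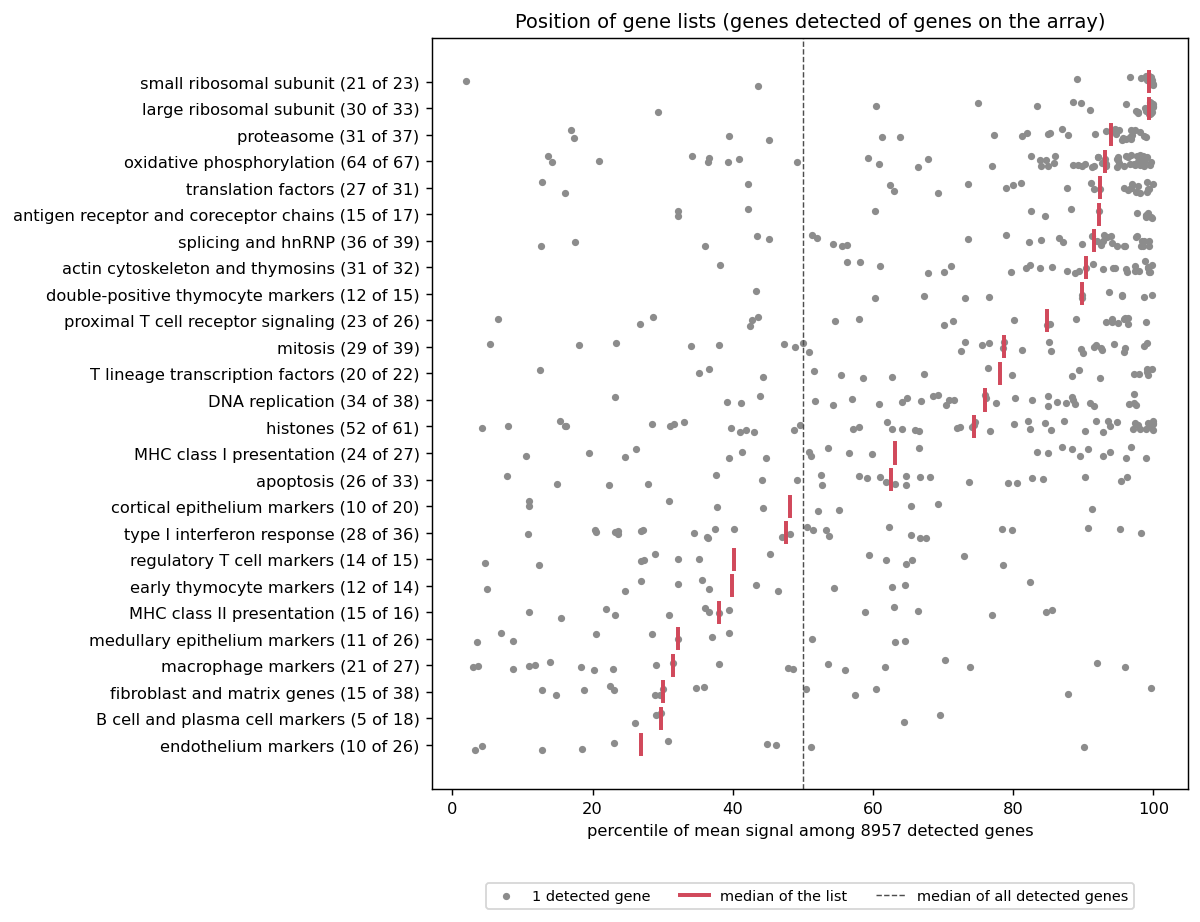
Percentile of mean signal among the 8957 detected genes for the members of 26 gene lists, with 1 grey point for each detected gene, a red bar at the median of the list and a dashed line at the median of all detected genes. Ribosomal, proteasome and oxidative phosphorylation lists sit above the 90th percentile, and epithelium, macrophage, fibroblast and endothelium lists lie below the 50th.

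The mice were close to each other over most of the transcriptome. Across the 16494 probes, which are not independent replicates, Pearson's correlation of log2 signal was 0.989 between mice 1 and 2, 0.992 between mice 1 and 3 and 0.988 between mice 2 and 3. The median SD between mice was 0.150, or 1.11-fold. With the probes cut into 4 equal groups by signal, it was 0.187 in the dimmest group, 0.175 and 0.140 in the groups between and 0.111 in the brightest. Each mouse had 1 array, so that mouse, dissection, labelling and array cannot be told apart, and all differences between mice below are descriptions without a test.

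The steadiest of the 100 brightest genes were Rpl3, at 14.30 in each mouse, Trbv13-2, Rps26 and Rps16. Cd8b1 had an SD of 0.02, Eif3i, a subunit of an initiation factor, one of 0.02, and Hnrnpc, which packages nascent transcripts, one of 0.03. Of the same 100 genes, the globins had the largest SD, followed by Rpl34, Rplp2 and Tmsb4x. Rpl34 had 13.82 in mouse 2, against 13.27 in mouse 1 and 13.51 in mouse 3. Tmsb4x, which sequesters actin monomers, had 13.84 in mouse 3, against 14.11 in mouse 1 and 14.35 in mouse 2.

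The highest and the lowest mouse differed by more than 2-fold on 244 of 16494 probes (1.48%) and for 103 of 8957 genes (1.15%). Mouse 2 was the highest on 194 of the 244 probes, whereas mouse 3 was the lowest on 131 and mouse 1 on 88. With mouse 2 left out, 40 probes had such a range, against 152 without mouse 1 and 121 without mouse 3. The widest gene ranges included Alas2 at 3.57-fold, Igfbp7 at 3.37-fold, Col4a1 at 3.34-fold, Igfbp5 at 3.22-fold, Serpinh1 at 3.11-fold and Timp3 at 3.05-fold.

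**Figure D3:**
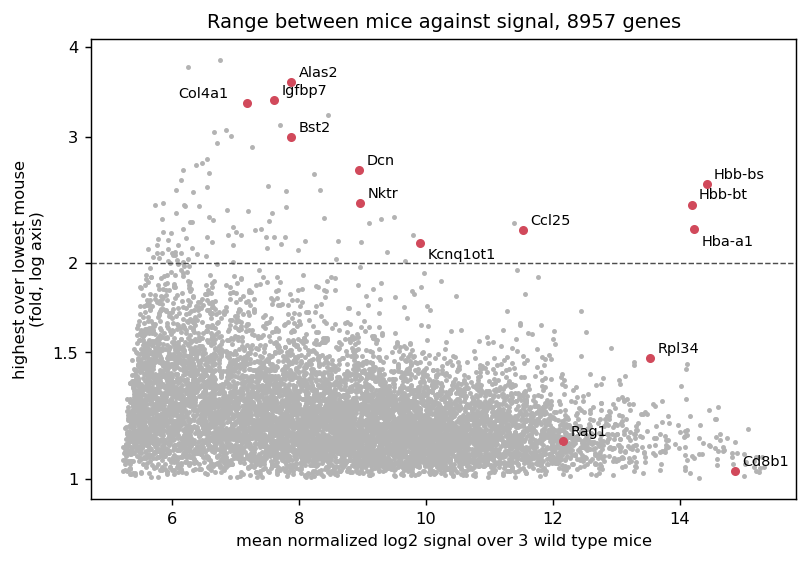
Highest over lowest mouse, as a fold on a log axis, against the mean normalized log2 signal of 8957 genes, with 1 point for each gene, named genes in red and a dashed line at 2-fold. The globin genes Hbb-bs, Hbb-bt and Hba-a1 stand above 2-fold at signals where other genes vary little, and Cd8b1 lies near 1.

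A mouse was called apart on a probe where it lay more than 1.5-fold above, or below, both others. Mouse 2 was apart above on 337 probes (2.04% of 16494) and below on 109 (0.661%). Mouse 1 was apart above on 42 probes (0.255%) and below on 77 (0.467%). Mouse 3 was apart above on 62 probes (0.376%) and below on 104 (0.631%). Counted by genes, mouse 2 was above in 145 of 8957 (1.62%) and below in 37 (0.413%), mouse 1 was above in 21 (0.234%) and below in 43 (0.480%), and mouse 3 was above in 26 (0.290%) and below in 51 (0.569%). The excess of probes with mouse 2 above held under every setting tried, while the counts themselves moved with the background correction.

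Globin transcripts were lowest in mouse 1. Hbb-bs had 13.57 in mouse 1, against 14.94 in mouse 2 and 14.76 in mouse 3, which is 12183 on the linear scale, against 31413 and 27732. Hbb-bt had 13.38 in mouse 1, against 14.64 in mouse 2 and 14.54 in mouse 3. Hba-a1 had 13.51 in mouse 1, against 14.67 in mouse 2 and 14.50 in mouse 3. On all 11 detected globin probes, the promoters of whose genes are printed above, mouse 1 was the lowest, by 1.99-fold to 3.02-fold relative to the nearer mouse, and mouse 2 was the highest. The beta-globin genes are near-identical copies, so their 10 probes are not separate measures.

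Alas2 followed the globins, with 6.72 in mouse 1, against 8.37 in mouse 2 and 8.56 in mouse 3. The other heme genes shown here differed less between the mice. Urod, a later enzyme of heme synthesis that most cells use, had 12.02 in mouse 1, against 12.06 in mouse 2 and 12.18 in mouse 3. Tfrc, the transferrin receptor of dividing cells, had 10.35 in mouse 1, against 10.44 and 10.50. Klf1 and Gata1, which drive red cell genes, and the membrane protein Slc4a1 were not detected on all 3 arrays. Of 21 erythroid and heme genes on the array, 6 were detected on all 3 arrays. Detection did not follow the globins, since mouse 1 detected 10 of the 21, mouse 2 detected 11 and mouse 3 detected 7. Missing in mouse 3 only were 3 genes, against 1 in mouse 1 only. Mouse 1 was lowest for 5 of these 6, against 2774 of all 8957 detected genes.

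Lists of epithelium, stroma and vessel genes also had their lowest median in mouse 1. Thymic epithelium markers were mostly highest in mouse 2, whereas matrix and vessel genes were highest about as often in mouse 3. The sizes given for these lists depended on the background correction, since without it the deviation of medullary epithelium markers was -0.13 in mouse 1 and 0.24 in mouse 2, that of fibroblast and matrix genes was -0.12 in mouse 1 and 0.12 in mouse 2, and that of endothelium markers was -0.08 in mouse 1, all with the same sign as below. For each list the deviation is the median over its genes of the log2 signal in a mouse minus the mean of the 3 mice. Over all detected genes these medians lay between -0.01 and 0.01. Of the 8957 detected genes, mouse 1 was highest for 2856, mouse 2 for 2920 and mouse 3 for 3181. The lowest mouse was mouse 1 for 2774, mouse 2 for 3388 and mouse 3 for 2795. In a bulk sample, fewer cells of a type and less RNA per cell cannot be told apart.

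Medullary epithelium markers deviated by 0.41 in mouse 2, -0.35 in mouse 1 and -0.12 in mouse 3, and mouse 2 was highest for 9 of 11 detected genes. Krt14, a keratin of medullary epithelium, had 7.92 in mouse 2, against 6.95 in mouse 1 and 7.25 in mouse 3. Krt17, another keratin, had 9.89 in mouse 2, against 8.84 in mouse 1 and 9.43 in mouse 3. Ccl21a, which draws maturing thymocytes into the medulla, had 8.98 in mouse 2, against 8.05 in mouse 1 and 8.68 in mouse 3. The paper gives the probe behind these values the name Ccl21b, so which of these genes it reads is uncertain. Aire, which lets medullary cells express tissue antigens, had 7.52 in mouse 2, against 7.16 in mouse 1 and 6.60 in mouse 3, so that mouse 3 and not mouse 1 was the lowest.

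Skin-type cornified epithelium genes, 8 of them detected and most among the dimmer detected genes, had another order. They deviated by 0.21 in mouse 3, -0.20 in mouse 1 and -0.05 in mouse 2, with mouse 3 highest for 5 and mouse 1 lowest for 5. Ly6d, the brightest of them, had 12.04 in mouse 3, against 11.63 in mouse 1 and 11.85 in mouse 2. Mouse 2 was highest for the other 3 genes. Among these, Krtdap had 6.37 in mouse 2, against 5.48 in mouse 1 and 5.50 in mouse 3, and Dmkn had 5.96, against 5.38 and 5.45. Without background correction the list deviated by 0.08 in mouse 3 and -0.07 in mouse 1. At a detection p below 0.01 fewer than 5 of its genes were left, so no deviation was taken.

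Trp63 and Cdh1, a factor and an adhesion molecule of epithelium, were higher in mouse 2 than in both other mice, but both were dim. Trp63 stood at the 6.90 percentile, with mice 1 and 3 near the lowest detected mean of 5.23, and Cdh1 at the 20.4. Trp63 had 6.37 in mouse 2, against 5.34 in mouse 1 and 5.41 in mouse 3, and Cdh1 had 7.21 in mouse 2, against 6.18 and 6.25. Cldn4, a tight junction protein, differed little, with 9.32 in mouse 2, against 9.33 in mouse 1 and 9.24 in mouse 3.

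Cortical epithelium markers deviated by 0.32 in mouse 2, -0.23 in mouse 1 and -0.03 in mouse 3, and mouse 2 was highest for 9 of 10 detected genes. Cxcl12, a chemokine that retains precursors in the cortex, had 9.12 in mouse 2, against 8.03 in mouse 1 and 8.68 in mouse 3. Il7, the growth factor of early thymocytes, was dim at the 10.9 percentile, with 6.52 in mouse 2, against 5.41 in mouse 1 and 5.90 in mouse 3. Krt8 and Krt18, the paired keratins of the cortex, were both highest in mouse 2 and lowest in mouse 1, over 1.73-fold and 1.76-fold. Ccl25 had 12.17 in mouse 2, against 11.38 in mouse 1 and 11.01 in mouse 3, but its second detected probe gave 8.79 in mouse 2, against 8.15 in mouse 1 and 8.74 in mouse 3.

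Fibroblast and matrix genes deviated by 0.29 in mouse 2, -0.27 in mouse 1 and 0.04 in mouse 3, and mouse 1 was lowest for 11 of 15 detected genes, while mouse 2 and mouse 3 were each highest for 7. The list is not purely stromal, since it counts Thy1, given above as a glycoprotein of all thymocytes. Thy1 is among the genes with mouse 3 highest. Dcn, a proteoglycan that coats collagen fibres, had 9.71 in mouse 2, against 8.28 in mouse 1 and 8.85 in mouse 3. Col4a1 of basement membranes had 8.04 in mouse 2, against 6.30 in mouse 1 and 7.19 in mouse 3. Timp3, an inhibitor of matrix proteases, had 7.45 in mouse 2, against 5.84 in mouse 1 and 6.71 in mouse 3.

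Igfbp5, a matrix-bound regulator of insulin-like growth factors, had 9.41 in mouse 2, against 7.72 in mouse 1 and 8.25 in mouse 3, and its other 2 detected probes gave the same order of mice. Serpinh1, the chaperone of collagen, had 8.54 in mouse 2, against 6.90 in mouse 1 and 7.69 in mouse 3. Igfbp7 of vessel walls differed from these in that mouse 3 was highest, with 6.53 in mouse 1, against 8.02 in mouse 2 and 8.28 in mouse 3. Endothelium markers as a list deviated by -0.18 in mouse 1, 0.08 in mouse 2 and 0.13 in mouse 3, with mouse 2 highest for 5 of 10 detected genes and mouse 3 for 4. Among them Aqp1, a water channel of vessels and of red cells, had 6.34 in mouse 1, against 7.88 and 7.56, while Pecam1, the adhesion molecule CD31, had 8.61 in mouse 1, against 8.38 and 8.69. The part of red cells and of stroma in the other differences between mice was not tested.

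The number of genes detected did not follow the same order in every list. Of 38 fibroblast and matrix genes on the array, mouse 1 detected 17, against 20 each in mice 2 and 3. Both other mice but not mouse 1 detected 4 of them. Counted by probes over the whole array, 364 of 45281 were missing in mouse 1 only, 377 in mouse 2 only and 714 in mouse 3 only. Of 20 cortical epithelium genes, mouse 1 detected 14, against 11 in mouse 2 and 12 in mouse 3, and Psmb11, a proteasome subunit of cortical epithelium, was detected on 2 of 3 arrays. Genes that are missing in a mouse are left out of the medians above, which rest on genes detected in all 3 mice. The chemokine list, which shares Ccl25, Cxcl12 and Ccl21a with the epithelial lists, deviated by 0.28 in mouse 2, -0.12 in mouse 1 and -0.10 in mouse 3.

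**Figure D4:**
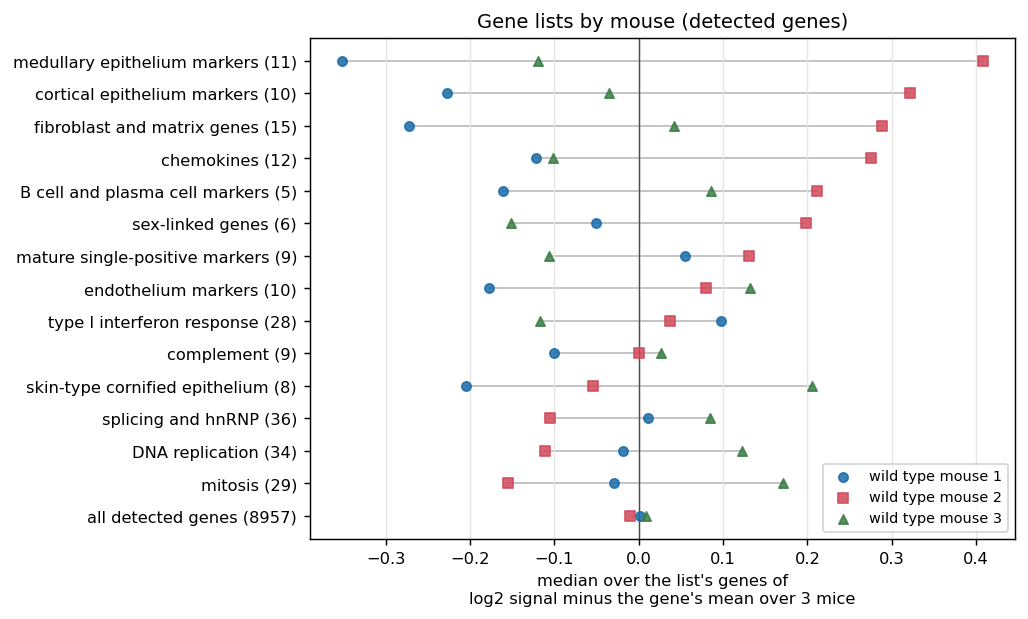
Median deviation from the mean of the 3 mice, on the log2 scale, for the 14 gene lists of at least 5 detected genes in which a mouse passed 0.1 in either direction, and for all detected genes at the bottom, with 1 point for each wild type mouse. Mouse 2 lies at 0.41 for medullary epithelium and at -0.16 for mitosis, and mouse 3 at 0.17 for mitosis.

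Genes of replication and mitosis ran the other way, highest in mouse 3 and lowest in mouse 2. Mitosis genes deviated by 0.17 in mouse 3, -0.03 in mouse 1 and -0.16 in mouse 2. Mouse 3 was highest for 23 of 29 detected genes and lowest for 0, and mouse 2 was lowest for 23. Over all 8957 detected genes, mouse 3 was highest for 3181 and mouse 2 was lowest for 3388. DNA replication genes deviated by 0.12 in mouse 3, -0.02 in mouse 1 and -0.11 in mouse 2, with mouse 3 highest for 22 of 34 and mouse 2 lowest for 24.

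Top2a, the topoisomerase that untangles replicated chromosomes, had 11.87 in mouse 3, against 11.43 in mouse 1 and 11.34 in mouse 2 on its brightest probe. Its other 2 detected probes did not give this order, with 10.12 and 7.19 in mouse 3, 10.14 and 6.83 in mouse 1 and 10.34 and 7.70 in mouse 2, which was highest on both. Plk1, a mitotic kinase, had 11.06 in mouse 3, against 10.97 in mouse 1 and 10.55 in mouse 2. Birc5, which guards chromosome segregation, had 12.21 in mouse 3, against 11.94 in mouse 1 and 11.75 in mouse 2. Mcm3 of the replicative helicase had 9.53 in mouse 3, against 9.09 in mouse 1 and 8.87 in mouse 2.

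Mcm6, another helicase subunit, had 10.80 in mouse 2, against 11.49 in mouse 1 and 11.37 in mouse 3. Another probe of Mcm6 also had mouse 2 lowest, with 10.36, and the remaining probe placed mouse 3 lowest, with 10.56. Rpa2, which coats single-stranded DNA, had 8.57 in mouse 2, against 9.07 in mouse 1 and 9.11 in mouse 3. Cdca5, which protects sister chromatid cohesion, had 8.31 in mouse 2, against 8.86 and 9.03. Splicing factors and hnRNP proteins showed the same order of mice, at 0.08 in mouse 3, 0.01 in mouse 1 and -0.11 in mouse 2.

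**Figure D5:**
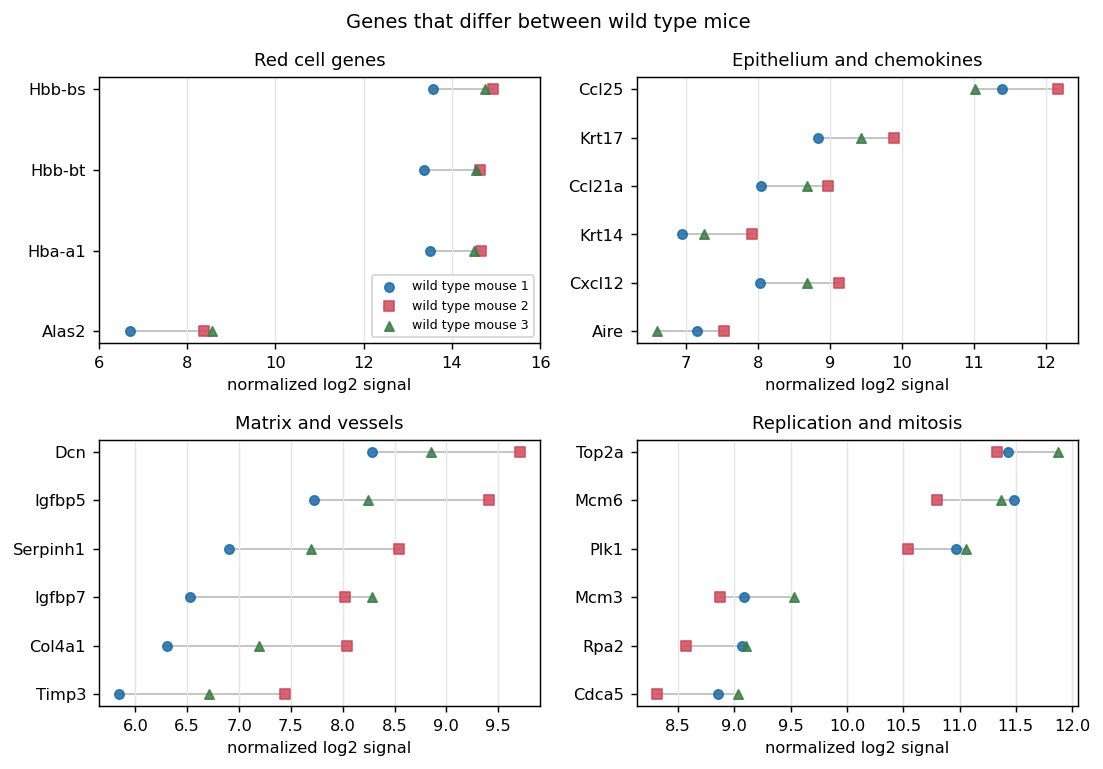
Normalized log2 signal of genes that differ between the wild type mice, in 4 panels for red cell genes, epithelium and chemokines, matrix and vessels, and replication and mitosis, with 1 point for each mouse and a line over their range. Mouse 1 is lowest in the red cell panel and the matrix panel, and mouse 2 is lowest in the replication and mitosis panel.

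Type I interferon response genes deviated by -0.12 in mouse 3, 0.10 in mouse 1 and 0.04 in mouse 2. Mouse 3 was lowest for 18 of 28 detected genes, and mouse 1 was highest for 21. Oasl2, a relative of the antiviral RNA sensors, had 8.32 in mouse 3, against 8.88 in both other mice. Isg15, a ubiquitin-like protein, had 8.21 in mouse 3, against 8.70 in mouse 1 and 8.64 in mouse 2. Rsad2, the antiviral enzyme viperin, had 7.98 in mouse 3, against 8.39 in mouse 1 and 8.54 in mouse 2.

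Some members of the interferon list had an order of their own. Bst2, a tether of budding virus that plasmacytoid dendritic cells also carry, had 8.81 in mouse 2, against 7.60 in mouse 1 and 7.23 in mouse 3. Ly6e, a surface protein that is abundant in the thymus, had 13.16 in mouse 3, against 13.09 in mouse 1 and 12.87 in mouse 2.

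Mature SP markers deviated by -0.11 in mouse 3, 0.05 in mouse 1 and 0.13 in mouse 2, but the 9 detected genes had no common order, since each mouse was lowest for 3 of them. At a detection p below 0.01 the list deviated by -0.06 in mouse 3 and 0.05 in mouse 2. Ms4a4b, a membrane protein of mature T cells, had 5.80 in mouse 3, against 6.37 in mouse 1 and 7.27 in mouse 2. Ccr7, the receptor that guides SP cells to the medulla, had 7.20 in mouse 3, against 7.66 in mouse 1 and 7.88 in mouse 2. Klf2 was highest in mouse 1, Foxo1 and Itgb7 in mouse 3, and Ms4a6b and Gimap6 were lowest in mouse 1. The DP marker list, by comparison, lay between -0.01 and 0.02 in the 3 mice.

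Beyond these lists, genes set apart above in mouse 2 had a median length of 42.8 kb, against 21.7 kb for all detected genes. Most other sets were also longer than all detected genes, with 37.9 kb for mouse 3 below, 34.5 kb for mouse 2 below, 27.9 kb for mouse 1 above and 27.7 kb for mouse 3 above, while mouse 1 below had 21.2 kb. Of the probes, 83 of the 337 with mouse 2 above (24.6%) and 21.0% of those with mouse 3 above are listed under no single gene, against 15.5% of all detected probes. Kcnq1ot1, a long nuclear RNA of an imprinted locus, had 10.64 in mouse 2, against 9.56 in mouse 1 and 9.54 in mouse 3. The probe listed under Rnu6, the U6 small nuclear RNA, had 12.34 in mouse 2, against 11.40 in mouse 1 and 11.55 in mouse 3. Uba6, an enzyme that activates ubiquitin, had 9.85 in mouse 2, against 8.66 and 8.83.

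Neat1 and Nktr were among the genes with mouse 3 apart below. Neat1, the RNA scaffold of paraspeckles, had 9.28 in mouse 3, against 9.89 in mouse 1 and 9.88 in mouse 2. Nktr, a cyclophilin-related protein with a repeat-rich tail, had 8.29 in mouse 3, against 9.03 in mouse 1 and 9.57 in mouse 2, but its second detected probe gave 7.59 in mouse 3, against 7.45 in mouse 1 and 8.42 in mouse 2. Mouse 1 was apart above in few genes, of which Map1lc3b, a protein of autophagosomes, had 9.34 in mouse 1, against 8.73 in mouse 2 and 8.71 in mouse 3, and Tax1bp1, an autophagy receptor, had 11.70 in mouse 1, against 11.19 and 11.17.

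A second probe of the same gene gave a check of such calls. Among genes with at least 2 detected probes, the brightest probe gave 75 calls of a mouse apart, summed over mice and directions. On the next probe the same mouse was the extreme one in 38 of these calls (50.7%) and was itself apart in 13 (17.3%). With mouse 1 below the next probe had the same extreme mouse in 6 of 8 genes, against 26.9% of all 3431 genes with at least 2 detected probes. Hbb-bs and Hbb-bt are among these genes, and their probes are not separate measures. With mouse 2 below the next probe had the same extreme mouse in 10 of 13, against 42.7%. With mouse 2 above it did so in 13 of 32 (40.6%), against 28.7%. With mouse 3 below it did so in 6 of 15, against 30.3%, with mouse 1 above in 2 of 4, against 31.9%, and with mouse 3 above in 1 of 3, against 39.2%. Lcp2, an adaptor below the T cell receptor, is an example, since its brightest probe had 9.63 in mouse 2, against 8.79 in mouse 1 and 8.53 in mouse 3, while the next had 8.53 in mouse 2, against 8.87 and 8.07.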

How the data were processed

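Total RNA of whole thymus from 3 wild type C57BL/6 mice was hybridized to Illumina mouse beadchips. The deposited scanner table, made by the authors with GenomeStudio, gives an average bead intensity and a detection p-value for each probe and array. The authors' processed values, a linear signal intensity for which the method of normalization is not given in the sources used here, served as an alternative. Here the intensities of the 3 wild type arrays alone were background-corrected from the detection p-values by neqc in limma (version 3.58.1, R 4.3.3), with an offset of 16, quantile-normalized and taken to log2. A probe was kept at a detection p below 0.05 on all 3 arrays. Median scanner signals over all probes were 140.7, 132.8 and 129 for mice 1, 2 and 3. The number of arrays limits the precision.

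Probes were named by the platform annotation, which lists 34885 probes under 1 gene, 18 under several and 10378 under none, and 34807 matched RefSeq by gene ID. A gene took its brightest detected probe. The 58 gene lists and the markers were chosen with earlier results of these data known. By rule, the named genes were the 25 brightest, up to 4 brightest of each list, the 10 of widest range and all markers. The rule also took, for each mouse and direction, the 10 farthest from both other mice among genes above the median signal. It further took the steadiest and least steady 10 of the 100 brightest, and up to 6 members of a list in which a mouse deviated. Those members were taken by the size of that deviation and need not be typical of their list. Of the genes given, those with no place under this rule were chosen after their values were seen. There is 1 group, so no test was made. The code was checked on simulated data. Sequences and the names of genes came from RefSeq (GRCm38.p6). Alternatives covered the background, the normalization, the detection filter, the probe of a gene and each mouse left out.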

Additional observations from a re-analysis of the deposited data

How the results depend on the processing

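No paired analysis was possible because only 1 group was described. The 25 brightest genes were found again in full under 8 alternative settings, 24 of them with each mouse left out, and 17 when a gene took the mean of its detected probes. Detected probes numbered 14537 at a detection p below 0.01 and 17949 when 2 arrays sufficed, and 16858 to 17208 with a mouse left out. Of 27 list deviations above 0.1, none changed sign under any setting, although 2 could not be had at the stricter detection p, where fewer than 5 genes of a list were left. Their sizes did change, and 15 of the 27 were over 1.5 times smaller without background correction, 13 from the processed values, 5 at the stricter detection p, 5 with the mean of the detected probes, 3 with an offset of 50 and 2 with median scaling. Of 51 lists, 12 kept their position within 10 percentile points without a detection filter, which ranks them among undetected genes too. The median SD was 0.0936 without background correction and 0.0962 from the authors' processed values, and 0.112 to 0.132 with a mouse left out.

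Counts of variable probes moved more. Probes with a range above 2-fold numbered 39 without background correction, 95 with an offset of 50, 43 from the processed values, 375 without a detection filter, and 40 to 152 with a mouse left out. Calls of a mouse apart on a probe, summed over mice and directions, came to 731. A probe with 1 mouse above and another below enters this sum under both. The sum was 122 without background correction, 262 with an offset of 50 and 145 from the processed values. It was 1197 without a detection filter and 69 at a limit of 2-fold. In the order mouse 1 above and below, mouse 2 above and below, and mouse 3 above and below, the counts were 2, 16, 95, 3, 0 and 6 without background correction. With an offset of 50 they were 10, 29, 176, 14, 6 and 27. From the processed values they were 2, 17, 114, 3, 0 and 9, and at 2-fold 1, 17, 44, 3, 2 and 2. Without a detection filter, mouse 1 had 115 above and 121 below, mouse 2 had 165 below and mouse 3 had 146 above. At a detection p below 0.01, mouse 1 had 21 above, mouse 2 had 70 below and mouse 3 had 34 above. Median scaling gave 126 for mouse 1 below. With a mouse left out, no mouse can be set apart from 2 others. Dim probes, close to background, limit these counts, and 1 array for each mouse gives no measure of array error.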
